A study of Mus musculus with 12 samples.

Results

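The cytoplasmic RNA sensing and interferon signalling pathway was examined here through 9 genes in mouse embryonic stem cells (ESCs): the RNA sensors Ddx58, Ifih1 and Tlr3, the adaptor Mavs, the kinase Tbk1, and the transcription factors Irf3, Irf1, Irf9 and Stat2. The genes were listed by name and found in the count table through their GENCODE identifiers, so that 9 of 51467 genes make up the set and all 9 were found. Wild-type ESCs of the V6.5 line and ESCs lacking Dgcr8 (Dgcr8 KO) were both grown in 15% serum with LIF and the 2 inhibitors PD0325901 and CHIR99021 (2i), and both were given 500 uM of the uridine analogue 4-thiouridine (4sU) for 30 min. Dgcr8 encodes a protein needed to process primary microRNA transcripts. Each RNA sample was then split into a captured 4sU fraction, which measures nascent transcription, and rRNA-depleted total RNA, which measures steady-state levels. Each of the 4 groups had 3 replicates, which made 12 libraries with 4593914 to 9295245 counts each. The knockout is a single, previously derived line, so differences between the lines cannot be told apart from the loss of Dgcr8. The labels do not say that replicates were separate cultures, and the p-values measure only the spread between these samples.

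Cells detect viral or misplaced double-stranded RNA with RIG-I (encoded by Ddx58) and MDA5 (encoded by Ifih1) in the cytoplasm and with TLR3 in endosomes. RIG-I and MDA5 signal through MAVS on the mitochondrial surface, which leads to activation of TBK1 and phosphorylation of IRF3, and IRF3 then induces type I interferon. Secreted interferon acts through its receptor and the JAK kinases, and STAT2 and IRF9 are subunits of the complex ISGF3 that binds interferon-stimulated response elements, while IRF1 binds related elements. Pluripotent cells are known for a weak interferon response, and microRNAs have been linked to the low level of Mavs in mouse ESCs.

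The microRNAs that matter here are shown first, because they are the products lost without Dgcr8 and because their seed can be searched for in the 9 genes. The ESC-specific cell cycle (ESCC) family is abundant in mouse ESCs, and its members share their seed, while miR-673-5p has been described as a regulator of Mavs. The mature RefSeq sequences (GRCm38.p6) are given with the seed, bases 2 to 8, in capitals.
miR-291a-3p: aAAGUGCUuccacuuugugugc
miR-294-3p: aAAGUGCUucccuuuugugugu
miR-295-3p: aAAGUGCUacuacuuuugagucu
miR-302b-3p: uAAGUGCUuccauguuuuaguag
miR-673-5p: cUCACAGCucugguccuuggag
The first 4 hold the same seed, and miR-673-5p has a different one.

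Matches to the ESCC seed of at least 7 bases (seed bases 2 to 8, or bases 2 to 7 followed by an A in the transcript) were found in the longest annotated 3′ UTR of 3 of the 9 genes: Irf9, Stat2 and Tlr3. The same search found a match in 2522 of 11813 tested protein-coding genes (21.3%). Tested genes are those that passed the filter on low counts described below. The 9 genes include Ifih1 and Tlr3, which did not pass it. Irf9 held 2 matches in a 3′ UTR of 999 bases, and Stat2 and Tlr3 held 1 each in 3′ UTRs of 1476 and 1496 bases. The 4 matches are shown with their surrounding bases in GENCODE M21 transcripts (mm10), and capitals mark the bases complementary to the seed.
Irf9, chr14:55609205-55609211, plus strand: cttgtaatctcAGCACTTggaagacagac
Irf9, chr14:55609378-55609384, plus strand: ctctaaatctaAGCACTTtatatatttta
Stat2, chr10:128292124-128292130, plus strand: aatggtttctgAGCACTTgggaattactc
Tlr3, chr8:45396937-45396943, minus strand: aaattgcaagtAGCACTTggatctcggaa
All 4 matches covered seed bases 2 to 8. No match of this kind to miR-673-5p was found in the longest 3′ UTR of any of the 9 genes, against 29.9% of tested protein-coding genes. In Mavs the 1236-base 3′ UTR held only a 6-base match to miR-673-5p. A match is a description of letters and was not tested as a binding site.

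The promoters were searched for the interferon-stimulated response element written GAAANNGAA, on both strands and from 250 bases before to 50 bases after each RefSeq start. It was present for 3 of the 9 genes, Ddx58, Ifih1 and Stat2, and for 2638 of 27025 genes with a promoter in the table (9.76%). The 4 matches are shown on the strand of the gene (GRCm38.p6), with the motif or its reverse complement in capitals.
Ddx58, chr4:40239814-40239822, minus strand: ctgaggcagtTTCGATTTCctatggccag
Ifih1, chr2:62646359-62646367, minus strand: agaattcgcgTTCCCTTTCctgtttctca
Ifih1, chr2:62646215-62646223, minus strand: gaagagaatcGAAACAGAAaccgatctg
Stat2, chr10:128270277-128270285, plus strand: gcaccctggtTTCAGTTTCctttccctag
Positions count from the RefSeq start. The Ddx58 match began at base 4 of the transcript. The matches of Ifih1 began 112 bases before the start and at base 33 of the transcript. That of Stat2 began 221 bases before the start. The second Ifih1 match lies upstream of Ifih1 as counted, which begins at 62646211 on the minus strand. For 9 of 11 promoters of the 9 genes, bases after the start were found in a GENCODE transcript of the gene.

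The labels and the cell type were checked before the 9 genes were compared. Dgcr8 itself fell in the knockout libraries by 1.60 on the log2 scale in total RNA (adjusted p = 6.63e-17 by limma, SE 0.0848), with counts of 222 to 298 remaining. All 8 ESC markers examined passed the filter on low counts, with a summed level, in CPM (counts scaled to library size), of 5300 to 5411 in wild-type and 5259 to 5416 in Dgcr8 KO total RNA. Within that sum Sox2, Pou5f1 and Zfp42 rose by 0.32, 0.26 and 0.15 on the log2 scale, and 4 others fell, by 0.15 to 0.46, with the largest fall for Sall4. In nascent RNA 6 of the 8 rose and 1 fell, with the sum at 5299 to 5513 CPM in wild-type and 6153 to 6637 CPM in knockout, and the stability of 6 fell. Of all genes that passed the filter, 27.2% rose and 36.7% fell in total RNA. In nascent RNA 28.3% rose and 28% fell, and the stability of 11.1% fell. Of 8 fibroblast and 8 leukocyte markers, only Pdgfra and Cd68 passed the filter. Both were higher in Dgcr8 KO total RNA, with log2 changes of 2.20 and 1.43 (limma adjusted p = 1.54e-05 and 9.04e-12). Pdgfra had passed only through Dgcr8 KO libraries, so its value is a description. The summed leukocyte markers lay at 11.5 to 13.9 CPM in wild-type and 30.6 to 33.9 CPM in Dgcr8 KO total RNA, and the fibroblast markers at 3.25 to 4.27 and 4.15 to 6.32 CPM. Of these markers Ptprc, Adgre1, Lyz2, Dcn and Postn, named because of their counts, were at 0 in every total library. They do not stand for the lists. Over all 12 libraries only 2 of the 8 leukocyte and 2 of the 8 fibroblast markers had no count. The part of such markers in the results was not tested.

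The 9 genes were compared between genotypes by limma-voom with all 12 libraries in a single model, and genes passed at a Benjamini-Hochberg adjusted p under 0.05 over the 14033 genes with at least 3 CPM in at least 3 libraries. Of the 9 genes, 7 passed this filter, each in all 12 libraries, while Ifih1 and Tlr3 did not. In total RNA 5 of the 7 rose in Dgcr8 KO (Ddx58, Irf9, Irf1, Mavs and Irf3) and none fell, and Tbk1 and Stat2 did not pass. Across all tested genes 27.2% rose and 36.7% fell. With the further limit of a log2 change over 1 used in the study, 3 of the 7 rose (Ddx58, Irf9 and Irf1), against 9.33% of all tested genes. The median log2 change of the 7 genes was 0.48, beside -0.09 for all tested genes. In bulk RNA, fewer cells of a type and less RNA per cell cannot be told apart.

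In nascent RNA 4 of the 7 rose (Ddx58, Irf9, Irf1 and Mavs) and none fell, while 28.3% of all tested genes rose and 28% fell. Ddx58 and Irf9 rose by more than 1 on the log2 scale, as did 9.5% of all tested genes. Stability, the ratio of total to 4sU signal, was compared through the interaction of genotype and library type. It rose for 1 of the 7, Irf9, and fell for none, and it rose for 2, Irf9 and Irf1, with a block for each pair of libraries split from the same RNA (limma adjusted p = 0.0363 for Irf1). Without the block, 5.02% of all tested genes rose and 11.1% fell. No member's stability rose by more than 1, against 0.791% of all tested genes.

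**Figure D1:**
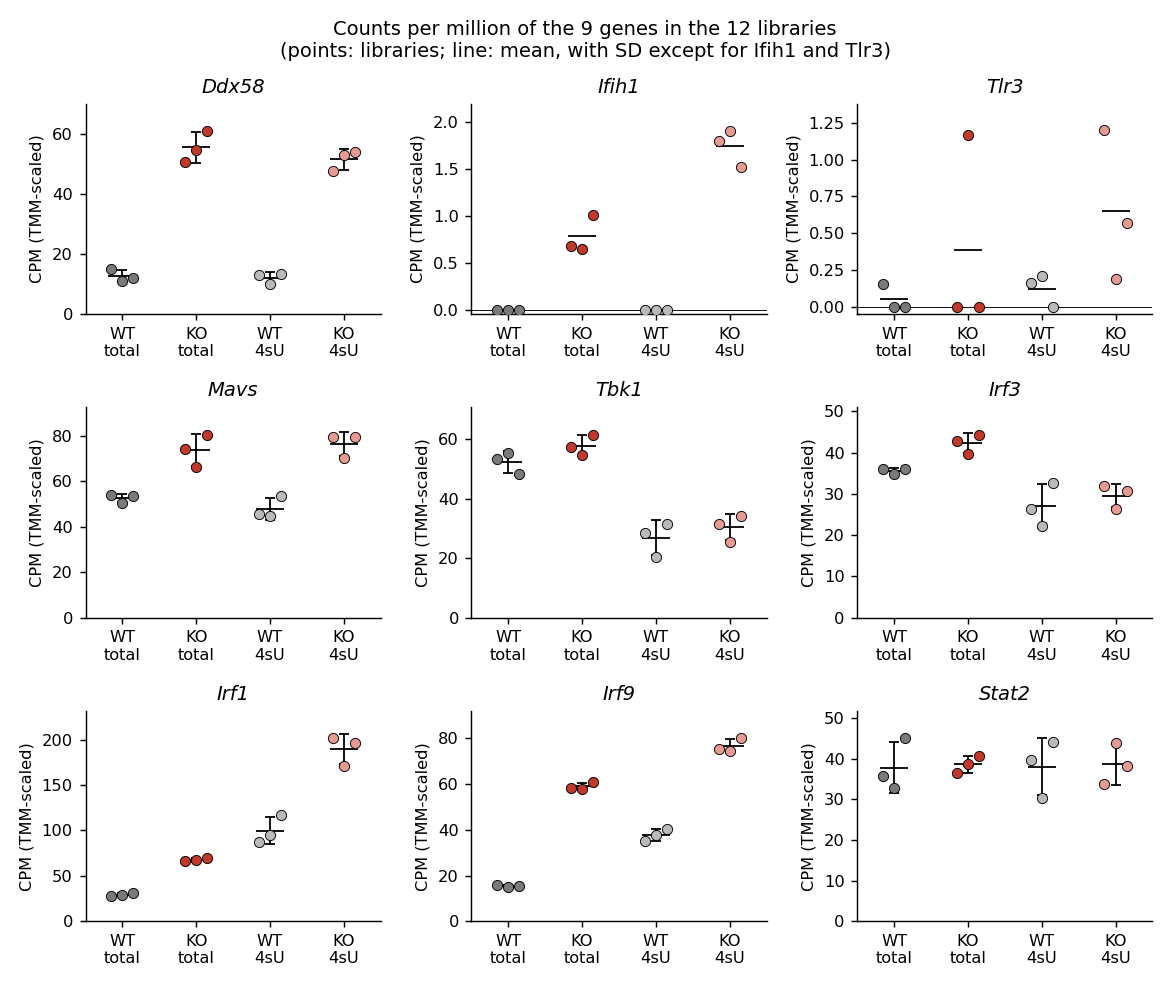
TMM-scaled CPM (vertical axis) of each of the 9 genes in wild-type (WT) and Dgcr8 KO (KO) total and 4sU libraries, with points for libraries, a line for the mean and bars for the SD (n = 3, no SD drawn for Ifih1 and Tlr3). The KO total libraries of Ddx58 sit between 50.9 and 61.1 CPM, all above the WT total libraries, while those of Stat2 overlap.

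Ddx58, which encodes the sensor RIG-I (ENSMUSG00000040296.15, mm10 chromosome 4, 40204849 to 40239828, minus strand), showed the largest rise among the 7 tested genes. Its level in wild-type total RNA was 15.1, 11.2 and 11.97 CPM (TMM-scaled), and 50.9, 54.9 and 61.1 CPM in Dgcr8 KO. The 3 knockout libraries all lay above the 3 wild-type libraries. This was a log2 change of 2.14 (adjusted p = 1.97e-16 by limma, SE 0.118), or 4.4-fold. In 4sU RNA the values were 13.03, 10.04 and 13.5 CPM in wild-type and 47.8, 53.0 and 54.3 CPM in Dgcr8 KO, again without overlap. The nascent log2 change was 2.07 (adjusted p = 8.24e-14 by limma, SE 0.141). The stability change of Ddx58 was 0.07 (adjusted p = 0.856 by limma, SE 0.184), and its ratios of total to 4sU signal overlapped between genotypes.

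Ifih1, which encodes the sensor MDA5 (ENSMUSG00000026896.14, mm10 chromosome 2, 62595798 to 62646211, minus strand), had no count in any of the 6 wild-type libraries. In Dgcr8 KO it had 6, 5 and 7 counts in total RNA and 9, 10 and 8 counts in 4sU RNA. Counts were thus seen in all 6 knockout libraries. Set against a floor of 3 counts over the 3 wild-type libraries, the observed Ifih1 counts were 5.93-fold higher in total RNA and 9.65-fold higher in 4sU RNA. Even so it remained scarce, with a mean of 0.779 CPM in knockout total RNA, and it did not pass the filter. The floor stands in for the wild-type zeros only and leaves out the counting error of the knockout counts. Neither floors nor the intervals given below cover the spread between replicates.

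Tlr3, the endosomal receptor for double-stranded RNA (ENSMUSG00000031639.12, mm10 chromosome 8, 45395665 to 45410619, minus strand), was close to the detection limit in both genotypes. Wild-type libraries held 1, 0 and 0 counts in total RNA and 1, 1 and 0 counts in 4sU RNA. Dgcr8 KO libraries held 0, 9 and 0 counts in total RNA and 6, 1 and 3 counts in 4sU RNA. All counts in knockout total RNA thus came from replicate 2, and the groups overlapped. The ratio of knockout to wild-type was 8.89 in total RNA (95% exact counting interval 1.23 to 390) and 5.36 in 4sU RNA (1.143 to 50.3). The interval takes no account of the spread between replicates.

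Mavs, the mitochondrial adaptor on which RIG-I and MDA5 converge (ENSMUSG00000037523.13, mm10 chromosome 2, 131234067 to 131248025, plus strand), rose by less than Ddx58. Wild-type total libraries held 54.0, 50.6 and 53.4 CPM and Dgcr8 KO libraries 74.3, 66.4 and 80.5 CPM. The groups did not overlap, and the log2 change was 0.48 (adjusted p = 2.85e-06 by limma, SE 0.0782). In 4sU RNA the wild-type values were 45.5, 45.0 and 53.5 CPM and the knockout values 79.4, 70.2 and 79.6 CPM. This was a nascent log2 change of 0.67 (adjusted p = 1.64e-07 by limma, SE 0.0897), also without overlap. The stability change was -0.19 (adjusted p = 0.316 by limma, SE 0.119), which did not pass the test.

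Tbk1, the kinase that phosphorylates IRF3 (ENSMUSG00000020115.3, mm10 chromosome 10, 121546455 to 121586787, minus strand), did not pass in any of the 3 comparisons. Its total level was 53.4, 55.2 and 48.2 CPM in wild-type and 57.2, 54.8 and 61.5 CPM in Dgcr8 KO, and the groups overlapped. The log2 change was 0.15 (adjusted p = 0.157 by limma, SE 0.0900). In 4sU RNA Tbk1 lay at 28.6, 20.3 and 31.7 CPM in wild-type and at 31.4, 25.6 and 34.3 CPM in knockout, with a log2 change of 0.17 (adjusted p = 0.28 by limma, SE 0.134).

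Irf3, the factor that TBK1 activates (ENSMUSG00000003184.15, mm10 chromosome 7, 44997648 to 45002848, plus strand), showed the smallest change that passed. Total RNA held 35.9, 34.8 and 36.0 CPM in wild-type and 42.9, 39.7 and 44.3 CPM in Dgcr8 KO. The groups did not overlap, and the log2 change was 0.25 (adjusted p = 0.0182 by limma, SE 0.0913). The call was lost without knockout replicate 1 (adjusted p = 0.0525) and without knockout replicate 3 (adjusted p = 0.0526). In 4sU RNA the values were 26.4, 22.2 and 32.7 CPM in wild-type and 31.8, 26.3 and 30.6 CPM in knockout, which overlapped (log2 change 0.13, adjusted p = 0.378 by limma, SE 0.121).

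Irf1, a transcription factor induced by interferon and by other signals (ENSMUSG00000018899.16, mm10 chromosome 11, 53770014 to 53778374, plus strand), rose in both fractions. Wild-type total libraries held 27.6, 29.1 and 30.9 CPM and Dgcr8 KO libraries 66.3, 67.1 and 70.0 CPM. This was a log2 change of 1.20 (adjusted p = 3.59e-12 by limma, SE 0.0998), or 2.31-fold, without overlap of the groups. In 4sU RNA Irf1 lay at 87.8, 95.4 and 116.5 CPM in wild-type and at 201.3, 170.5 and 196.5 CPM in knockout. Per length of transcript, this was the highest 4sU level of the 9 genes in both genotypes, with 34.9 ± 8.13 and 75.1 ± 8.39 TPM (SD, n = 3). The nascent log2 change was 0.93 (adjusted p = 9.11e-12 by limma, SE 0.0777). The stability change of 0.27 (SE 0.126) did not pass (limma adjusted p = 0.147). With a block for each pair of 4sU and total libraries split from the same RNA it was 0.29 and passed (limma adjusted p = 0.0363), and with RLE scaling and no block it was 0.36 and passed (limma adjusted p = 0.0478).

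Irf9, the DNA-binding subunit of ISGF3 (ENSMUSG00000002325.14, mm10 chromosome 14, 55603571 to 55610030, plus strand), was the only one of the 7 whose stability change passed in the model with TMM scaling and no block. Total libraries held 15.9, 15.2 and 15.3 CPM in wild-type and 58.5, 58.0 and 60.8 CPM in Dgcr8 KO. The log2 change was 1.93 (adjusted p = 1.23e-17 by limma, SE 0.0952), or 3.8-fold. In 4sU RNA the values were 35.1, 37.6 and 40.6 CPM in wild-type and 75.4, 74.6 and 80.0 CPM in knockout. The nascent log2 change was 1.02 (adjusted p = 3.69e-12 by limma, SE 0.0823) and the stability change 0.90 (adjusted p = 4.33e-06 by limma, SE 0.126). Neither fraction had overlapping groups. The 2 ESCC seed matches printed for Irf9 lie in its 3′ UTR, and whether they take part in this change was not tested. Of the exonic bases of Irf9, 123 of 3102 overlap exons of Rnf31 on the same strand, so reads there could not be assigned to Irf9 alone.

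Stat2, a STAT subunit of ISGF3 (ENSMUSG00000040033.16, mm10 chromosome 10, 128270576 to 128292849, plus strand), did not pass in any comparison. Its total level was 35.6, 32.8 and 45.0 CPM in wild-type and 36.5, 38.7 and 40.6 CPM in Dgcr8 KO. Wild-type replicate 3 was the highest of the 6 libraries, and the knockout values lay inside the wild-type range. The log2 change was 0.03 (adjusted p = 0.834 by limma, SE 0.109). In 4sU RNA it lay at 39.6, 30.3 and 44.1 CPM in wild-type and at 33.8, 43.9 and 38.1 CPM in knockout (log2 change 0.02, adjusted p = 0.913 by limma, SE 0.126). Its stability change was 0.01 (adjusted p = 0.98 by limma, SE 0.167), and its 3′ UTR holds the ESCC seed match printed for it.

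**Figure D2:**
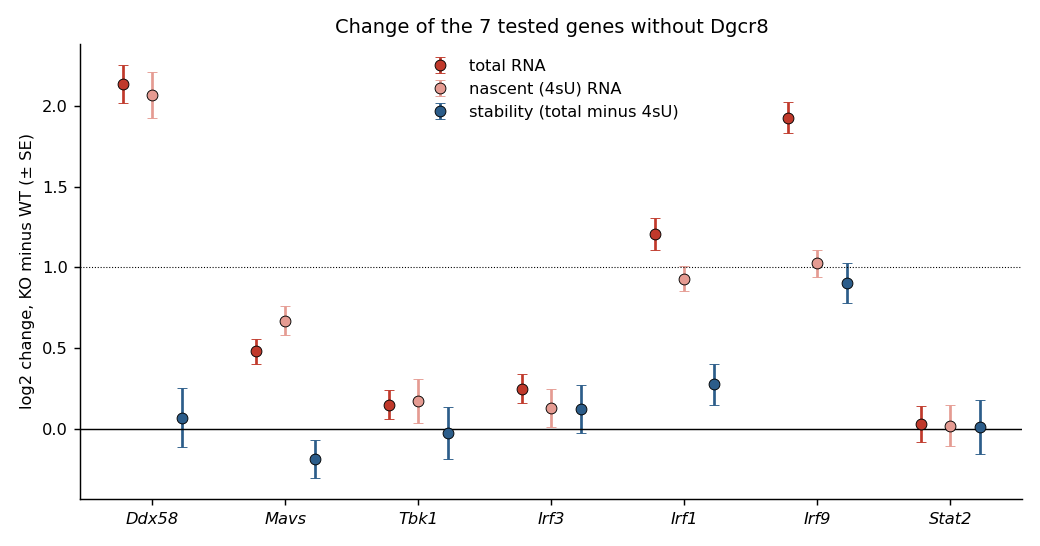
Log2 change between Dgcr8 KO and wild-type (vertical axis, ± SE) of the 7 tested genes in total RNA, nascent RNA and stability, with a dotted line at a change of 1. Ddx58 changed by 2.14 and 2.07 in total and nascent RNA with a stability change of 0.07, while Irf9 changed by 1.93, 1.02 and 0.90.

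Levels were compared between genes per length of transcript, as counts per kilobase scaled to the same total in each library (TPM). In wild-type total RNA Tbk1, Mavs and Irf3 stood highest, at 32.4 ± 2.19, 31.9 ± 1.19 and 30.4 ± 0.678 TPM (SD, n = 3), and each overlapped its neighbour in the order. Irf1 and Stat2 followed at 16.4 ± 0.929 and 16.1 ± 2.75 TPM, also with overlapping libraries. Irf9 at 9.37 ± 0.236 TPM and Ddx58 at 6.18 ± 1.02 TPM were separate from their neighbours and the lowest of the 7 tested genes. In Dgcr8 KO total RNA the first 5 genes in the order were Mavs, Irf1, Irf3, Tbk1 and Irf9, between 48.3 and 38.5 TPM, and neighbours in that order overlapped. Ddx58 reached 29.1 ± 3.22 TPM and stood above Stat2 at 17.8 ± 1.25 TPM without overlap. The sensor and the ISGF3 subunit that were lowest among the tested genes in wild-type thus moved closer to the level of Mavs, while Stat2 became the lowest.

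The 7 genes differed in how total and nascent levels related to each other within a genotype. The log2 ratio of total to 4sU CPM was expressed relative to the median of all tested genes, so that a negative value stands for a transcript with less steady-state RNA for its nascent signal than most. In wild-type pairs Irf1 had ratios of -1.73, -1.80 and -1.98, at percentile 13.3 of all tested genes. Irf9 had ratios of -1.19, -1.38 and -1.46, at percentile 19.8. Tbk1 lay at the other end, with 0.81, 1.32 and 0.51 and percentile 78.4. Mavs, Ddx58 and Stat2 lay near the median, with mean ratios of 0.05, -0.03 and -0.09, and Irf3 lay at 0.31.

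In Dgcr8 KO the ratios of Irf9 were -0.37, -0.36 and -0.38, all above the 3 wild-type ratios, and its percentile was 39.4. Those of Irf1 were -1.61, -1.34 and -1.47, also above the wild-type ratios, at percentile 18.4. For Mavs, Ddx58, Tbk1, Irf3 and Stat2 the ratios of the genotypes overlapped.

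**Figure D3:**
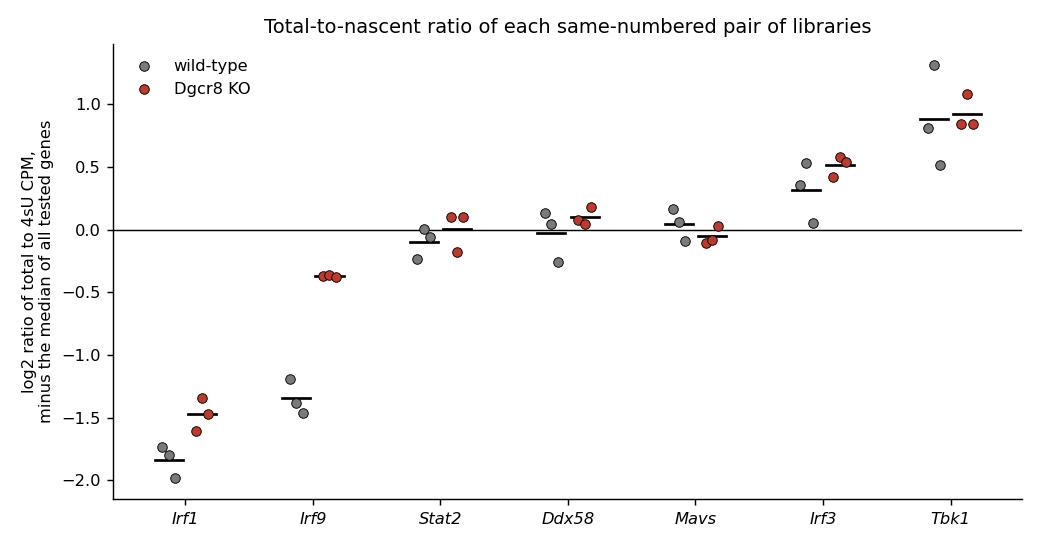
Log2 ratio of total to 4sU CPM minus the median of all tested genes (vertical axis) for the 7 tested genes, with points for same-numbered pairs of libraries and lines for the mean of 3. The knockout points of Irf9, from -0.38 to -0.36, lie above its wild-type points, from -1.46 to -1.19.

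The other genes of the pathway were taken from lists chosen for their roles. A gene that passes the filter only through the libraries where it is high has to differ. For this reason each list, beside any count over all its tested genes, is described through its genes at 3 CPM or more in every library. Of all 10261 such genes 28.7% rose and 41.6% fell in total RNA, with a median log2 change of -0.10, and 28.5% rose and 29.8% fell in nascent RNA. Of 21 further nucleic acid sensors and effectors 7 were at this level, of which 5 rose and 1 fell in total RNA, with a median log2 change of 0.47. With the 7 others that passed the filter, 12 of 14 rose and 1 fell, beside 27.2% and 36.7% of all tested genes. These 12 include Zbp1, Ddx60 and Oas1b, which had passed only through Dgcr8 KO libraries. They also include Dhx58, named for this reason. It reached 3 CPM in 1 wild-type and 4 Dgcr8 KO libraries, so it needed the latter to pass. This count and the values of these genes are a description. Zbp1, a sensor of Z-form nucleic acid, had 18 counts over the wild-type and 312 over the Dgcr8 KO total libraries. Ddx60, a helicase linked to RIG-I signalling, had 12 and 188 counts, and Oas1b of the oligoadenylate synthetase family had 7 and 39. Adar, which edits double-stranded RNA, fell by 0.26 on the log2 scale (adjusted p = 0.00125 by limma, SE 0.0685). In nascent RNA 3 of the 7 rose and none fell.

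Of 29 partners and regulators of MAVS and TBK1 27 were tested, and 15 rose and 5 fell in total RNA, beside 27.2% and 36.7% of all tested genes, with a median log2 change of 0.27. Among the 25 at 3 CPM or more in every library 13 rose and 5 fell, with a median log2 change of 0.22. The count of falls was 3 with DESeq2 and with scaling to library size only. Ticam1, the adaptor of TLR3, rose by 1.43 on the log2 scale (adjusted p = 6.71e-08 by limma, SE 0.188). The deubiquitinases Cyld and Tnfaip3 rose by 1.00 each (limma adjusted p = 2.65e-14 and 0.000962). Tbkbp1, an adaptor of TBK1, fell by 0.63 (adjusted p = 0.000833 by limma, SE 0.159), Tomm70a, a mitochondrial import receptor, fell by 0.55 (SE 0.0473), and Pcbp2, which promotes MAVS turnover, fell by 0.32 (SE 0.0533). In nascent RNA 14 rose and 4 fell, beside 28.3% and 28% of all tested genes, and without wild-type replicate 2 these counts were 10 and 2.

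Among 9 other interferon regulatory factors and IRF2-binding partners 5 were at 3 CPM or more in every library, of which 2 rose and 1 fell in total RNA, with a median log2 change of 0.01. Irf2, known as an antagonist of IRF1 at many promoters, had 6 counts over the wild-type and 128 over the Dgcr8 KO total libraries. It had passed the filter only through Dgcr8 KO libraries. Irf2bpl and Irf2bp2 rose by 0.43 and 0.37. The gene that fell, named because it is the only one, was Irf5 (log2 change -0.38, adjusted p = 0.0443 by limma, SE 0.163), and its call was lost under DESeq2, the other scalings and the removal of several replicates.

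Of 17 interferon receptor subunits, JAK-STAT components and their regulators 15 were tested. In total RNA 10 rose and 1 fell, beside 27.2% and 36.7% of all tested genes, with a median log2 change of 0.40. Among the 14 at 3 CPM or more in every library 10 rose and 1 fell, beside 28.7% and 41.6% of all genes at that level. Their median log2 change was 0.41. Among the receptors, Ifnar1 of the type I receptor rose by 0.40 on the log2 scale, Ifngr1 and Ifngr2 of the interferon gamma receptor by 0.72 and 1.95, and Ifnlr1 of the interferon lambda receptor by 0.52. Ifnar2 had a log2 change of 0.21 and did not pass (limma adjusted p = 0.23), and Il10rb was not tested. Of the kinases, Jak1 and Tyk2 each rose by 0.60 and Jak2 by 0.83. Stat3, a transcription factor of the same family as Stat2, had a log2 change of -0.02 and did not pass (limma adjusted p = 0.78).

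Among the regulators of JAK-STAT signalling, Pias1 rose by 0.41, Ptpn2 by 0.27 and Socs3 by 0.32 on the log2 scale. Socs3, a feedback inhibitor, rose by 2.12 in nascent RNA (limma adjusted p = 1.07e-21), and its stability fell by 1.80 (limma adjusted p = 1.22e-13). Ptpn11, which encodes the phosphatase SHP2, fell by 1.03 in total RNA (adjusted p = 3.3e-14 by limma, SE 0.0702). Socs1 (log2 change -0.21) and Ptpn6 (-0.08) did not pass, and Usp18 was not tested. In stability 1 of the 15 tested genes rose, Ifngr2 by 1.10 (limma adjusted p = 0.000704), and 2 fell, Socs3 and Ptpn11. Of all tested genes 5.02% rose and 11.1% fell in stability.

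The interferons themselves were not detectable at this depth. Of 20 interferon genes examined, 19 had no count in any of the 12 libraries, and the remaining gene had 1 count in a single library.

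Of 48 interferon-stimulated genes 12 were at 3 CPM or more in every library, of which 9 rose and 3 fell in total RNA, with a median log2 change of 1.41, beside 28.7% and 41.6% of all genes at that level. In nascent RNA 9 of these 12 rose and none fell. In all 25 passed the filter, 8 of them with no wild-type library at 3 CPM. Igtp and Trim21, named for this reason, reached 3 CPM in 2 wild-type libraries, so they also needed Dgcr8 KO libraries to pass. The other 15 had at least 3 wild-type libraries at 3 CPM, and 12 of these rose in total RNA. Of the 25, 21 rose and 3 fell in total RNA, beside 27.2% and 36.7% of all tested genes. The 21 include Igtp, Trim21 and 7 of the 8 with no wild-type library at 3 CPM, so this count is a description. In stability 1 of the 25 rose, or 2 under several other settings, and 2 fell, beside 5.02% and 11.1% of all tested genes. The count of falls was 4 with the block for pairs of libraries, 0 with DESeq2, RLE or upper-quartile scaling and without wild-type replicate 1 or Dgcr8 KO replicate 1, and 1 without wild-type replicate 2 or 3. The genes Gbp2, Psmb8 and Uba7 were among those that had passed only through knockout libraries, so their values, bounds and intervals are a description. Gbp2, an interferon-induced GTPase, went from 0 counts over the wild-type to 133 over the Dgcr8 KO total libraries. This was 43.8-fold above a floor of 3 counts over the wild-type libraries. Psmb8, a subunit of the immunoproteasome, went from 2 to 298 counts, a ratio of 147 (95% exact counting interval 40.4 to 1221). Uba7, which activates ISG15, went from 2 to 140 counts, a ratio of 69.2 (18.8 to 577). The 3 genes that fell were Bst2, Pml and Ifitm2, with log2 changes of -0.69, -0.23 and -0.17. Of the 48, 23 did not pass the filter and 5 had no count in any library. Ifit3, Ifit3b, Ccl5, Ifi44 and Iigp1, named here because they make up that count, include classical targets of ISGF3.

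**Figure D4:**
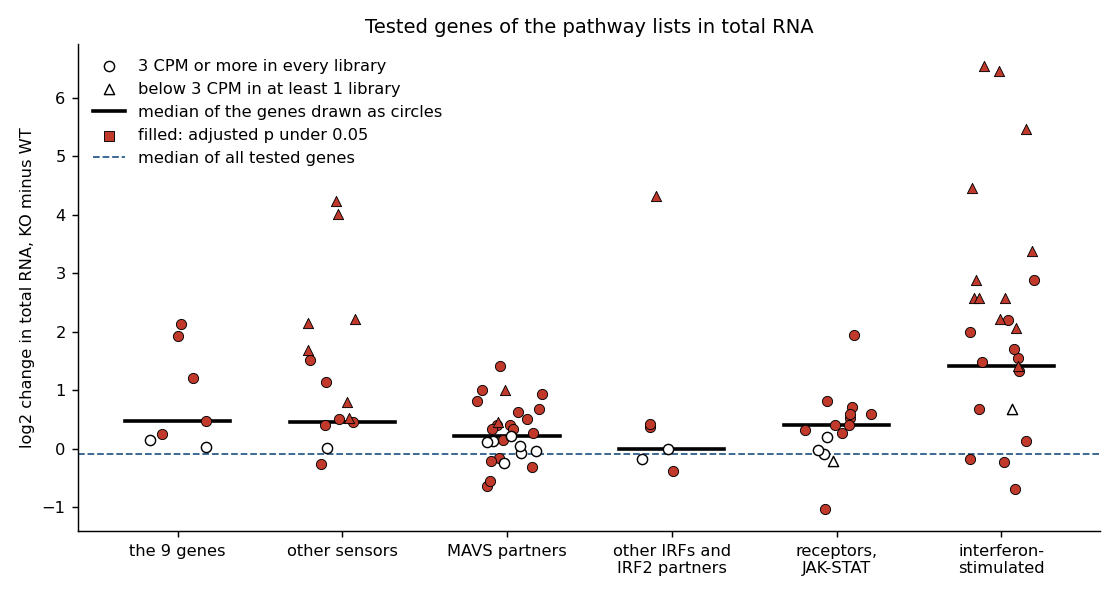
Log2 change in total RNA between Dgcr8 KO and wild-type (vertical axis) of the tested genes of each list, filled where adjusted p was under 0.05, with circles for genes at 3 CPM or more in every library and triangles for the others. Black lines mark the median of the circles, from 0.01 for the other interferon regulatory factors to 1.41 for the interferon-stimulated genes and 0.48 for the 7 tested of the 9 genes, and the dashed line the median of all tested genes at -0.09.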

How the data were processed

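RNA was measured in 12 libraries of mouse ESCs, 3 for each genotype and library type, grouped by the labels. The source name of the knockout samples reads DDX8KO, so genotype, type and title were used. Libraries were made with the KAPA Stranded RNA-Seq or the Stranded HyperPrep kit. Which library used which kit is not stated, so a kit effect was not tested. Per the file header and the labels, the authors trimmed reads with cutadapt 1.14, mapped them to mm10 with STAR 2.5.3a and deposited whole-number counts per gene from featureCounts 1.5.3 (GENCODE M14, strand setting 2), without normalization. Stranded counting keeps antisense genes apart, and unique mapping can under-count near-identical copies. Depth was 4593914 to 9295245 counts per library. The table also holds 92 spike-in rows with 1 count in all, which were left out.

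Symbols came from GENCODE M21, which matched 51274 of 51467 genes. Counts were fitted with limma 3.58.1 (voom, TMM factors from edgeR 4.0.16, R 4.3.3), with library type, genotype and their interaction. CPM of single libraries are TMM-scaled. The quasi-likelihood test of edgeR and DESeq2 1.42.0 were alternatives, with other scalings, filters, blocks and 6 fits that each left out both libraries of a replicate. Scripts were tested on simulated data. The labels state that labelled RNA was split into both fractions, so same-numbered total and 4sU libraries of a genotype were taken as pairs. The correlations of their deviations were low (0.0181 to 0.116), so the pairing rests on the labels. 3′ UTRs were those of protein-coding transcripts in GENCODE M21.

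The 9 genes and the lists were chosen with earlier results of these data known. The text names the 9 genes, Dgcr8, all receptor and JAK-STAT genes, genes overlapping a member and, per list, up to 3 genes that rose most and 3 that fell most in total RNA among those that passed without overlap of the groups. Genes named outside this rule are said to be. The description of the lists through genes at 3 CPM or more in every library was chosen after the data were seen. An item was left out of the lists and their counts and is not reported here.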

Additional observations from a re-analysis of the deposited data

Results flagged for a closer look

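The change of Irf9 between genotypes differed between the 2 library types. It was 1.93 on the log2 scale in total RNA and 1.02 in nascent RNA, a difference of 0.90 (limma interaction adjusted p = 4.33e-06). The ratio of total to 4sU CPM was higher in 3 of 3 knockout pairs than in every wild-type pair. Over the 15 alternatives tried for this value it ranged from 0.84 to 1.00, with adjusted p-values from 1.53e-09 to 0.000151.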

How the results depend on the processing

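Among alternative values of single genes 321 kept their direction and their side of the threshold, 2 lost and 2 gained a call and 19 turned sign. Among list counts recomputed after the data were seen, 369 stayed within 1.5 times and 61 moved further. The limit of a log2 change over 1 left 3 genes in total RNA, 2 in nascent RNA and 0 in stability. Stability was called for 2 genes under RLE scaling and with the block for pairs of libraries split from the same RNA. Irf1 was added in both (limma adjusted p = 0.0478 and 0.0363). Signs turned only for values that had not passed. The nascent change of Stat2 was -0.0401 with DESeq2, -0.0403 with RLE and -0.0314 with upper-quartile scaling. The stability change of Tbk1 was 0.0662 with DESeq2, 0.0653 with RLE, 0.0419 with upper-quartile scaling and 0.00197 with library size only. Leaving out 1 replicate, 4 to 5 genes were called in total RNA, and Stat2 ranged from -0.0879 to 0.165 in total RNA, from -0.122 to 0.123 in nascent RNA and from -0.0593 to 0.0945 in stability, and the stability changes of Tbk1, Ddx58 and Irf3 from -0.212 to 0.181, -0.0429 to 0.121 and -0.0128 to 0.216. Matches to miR-673-5p were found in 1 gene (Irf1) in any annotated 3′ UTR and in 4 as 6-base matches. The cause was not tested. Replicate numbers were not taken to pair the genotypes (correlations -0.0898 to 0.0822), and with a replicate block the counts stayed at 5, 4 and 1. Ifih1 passed only in the fit with no filter beyond 1 count (6 and 5 genes then). Depth limits Ifih1 and Tlr3.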

Other observations

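Further genes of the pathway, named after their values were seen, extend the description of the sensors and their outputs. Dhx58, which encodes the RIG-I-like receptor LGP2, had 8 to 10 counts in wild-type and 18 to 39 in Dgcr8 KO total libraries (log2 change 1.70). Its nascent change of 0.36 did not pass (limma adjusted p = 0.397). It had 1 wild-type and 4 Dgcr8 KO libraries at 3 CPM and needed the latter to pass the filter, so its values are a description. Aim2, a cytoplasmic DNA sensor, rose by 1.52 in total and 1.66 in nascent RNA on the log2 scale, and Eif2ak2, the kinase PKR that is activated by double-stranded RNA, rose by 0.52 and 0.46. Rsad2, the antiviral enzyme viperin, had no count in wild-type total RNA and 6 to 15 counts in Dgcr8 KO libraries. This was 8.89-fold above a floor of 3 counts over the wild-type libraries. Isg15 and Cxcl10 had at most 1 and 2 counts in any total library of either genotype.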
